A study of Mus musculus with 6 samples.

Results

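The PI3K and mTOR follicle activation genes are 9 genes of a signalling chain that governs when resting oocytes begin to grow: Pik3ca, Pik3r1, Akt1, Akt2, Tsc1, Tsc2, Mtor, Rptor and Cdkn1b. They were chosen by name, and every probe that the platform annotation assigns to one of them was taken, which gave 27 of the 45281 probes of the array and 9 of 19057 named genes. Total RNA of newborn mouse ovary, strain C57BL/6/129S6/SvEv, was hybridised to Illumina MouseWG-6 BeadChips. Wildtype ovaries gave 2 arrays (numbers 2 and 3), and ovaries lacking both Sohlh1 and Sohlh2 gave 4 (numbers 1, 2, 3 and 5). Both genes encode germ cell transcription factors with a basic helix-loop-helix domain, and their loss was the only difference in genotype that the labels give. The labels do not say how the alleles were made, how many ovaries went into a sample or whether samples were separate animals, so each p-value reflects the spread among 6 samples, which may be technical. The design asks which transcripts differ between the genotypes, and the question put here is whether the genes of this chain did.

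In the ovary, pregranulosa cells make KIT ligand, and its receptor KIT on the oocyte recruits phosphoinositide 3-kinase (PI3K), which makes a membrane lipid that activates the kinase AKT. AKT drives the transcription factor FOXO3 out of the oocyte nucleus and blocks the TSC1 and TSC2 complex, which otherwise holds back the growth kinase complex mTORC1. In mice, loss of Tsc1 or Tsc2 from oocytes, of Foxo3, or of Cdkn1b, which encodes the cell cycle inhibitor p27, is known to set resting follicles growing too early. Most steps of the chain work by phosphorylation of proteins, which an RNA array does not measure.

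The signals of these genes that could be measured differed little between the genotypes. Of the 14 member probes with signal enough to be tested, which covered 7 of the 9 genes, 0 passed an adjusted p of 0.05 in limma's test and 0 had an unadjusted p under 0.05. Over the whole array 7.27% of tested probes passed the first threshold (3.62% lower and 3.65% higher in double knockout) and 24.5% the second. The 14 changes ran from -0.30 to 0.32 on the log2 scale (double knockout minus wildtype, as throughout), with 7 above and 7 below 0. Their median size without sign was 0.11, against 0.22 over all 21981 tested probes. The 95% interval of the change lay within 2-fold either way for all 14 probes, as it did for 85.1% of all tested probes, and within 1.5-fold for 9 of the 14. The widest interval, for Cdkn1b, reached a 1.81-fold rise. Several of these probes were dim, where the lowest detected log2 signal of an array was 4.72 to 4.76. Wildtype means were 4.72 for Tsc2 ILMN_2656924, 4.73 for Tsc1 ILMN_2584614 and 4.99 for Rptor ILMN_1220256. The only tested probes of Pik3ca and Cdkn1b had wildtype means of 5.27 and 5.76. Background makes up part of such signals, so a small change there says less about the transcript.

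A probe counted as detected on an array where its detection p was under 0.05, and was tested where this held on at least 2 of the 6 arrays. Of the 27 member probes 11 were detected on every array, 4 on some and 12 on none. The 13 untested probes had raw signals of 38.9 to 64.8 units on every array, close to the array medians of 59.3 to 61.1. They included the single Akt1 probe and both Akt2 probes, so neither AKT gene has a measured change here. An untested probe says nothing about the level of its gene, since 5 of the 7 measured genes also had a probe that was not detected on any array: Tsc1 had 1, Mtor 1, Pik3r1 2, Cdkn1b 2 and Rptor 4. Among the 20 probes annotated to a RefSeq transcript 10 were tested, and among the 7 annotated to a cDNA clone 4 were.

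**Figure D1:**
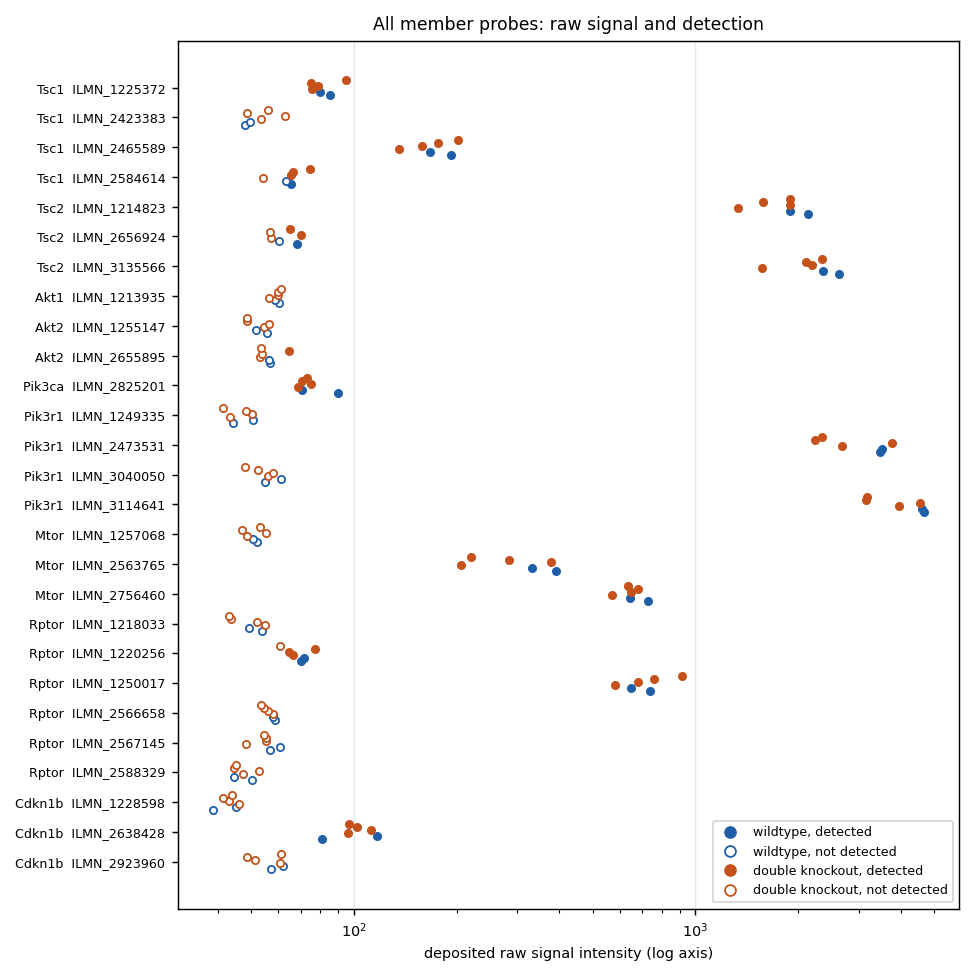
Deposited raw signal intensity (log axis) of all 27 member probes on each of the 6 arrays, with blue for wildtype and orange for double knockout. Filled points were detected and open points were not, and the 13 untested probes lie between 38.9 and 64.8 units.

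SOHLH proteins are of a family that binds the E-box, written CANNTG, which reads the same on both strands. To show what stands before the start sites, 250 bases upstream of each were read from RefSeq's GRCm38.p6 promoter table, in which all 9 genes were found. Of 14 listed member starts 8 held at least 1 E-box, against 66.2% of all 32851 promoters in the table. Rptor and Tsc2 are printed as members with E-boxes whose RNA did not pass the test, and Kit as the pathway gene with the lowest change by its brightest probe, whose listed starts held 0 in this window. Other genes ran the other way: the called genes Castor1 and Tcl1 each held 1, and the members Pik3ca, Mtor and Cdkn1b, which did not pass, held 0. Of 7 listed starts of called pathway genes 2 held an E-box. These starts belonged to 6 genes: Rhebl1 had none listed, and Kit had 2 whose windows overlap almost in full. E-boxes are in capitals, and a match is a string of letters, not a shown binding site.
Rptor (chr11:119602655-119602904, plus strand): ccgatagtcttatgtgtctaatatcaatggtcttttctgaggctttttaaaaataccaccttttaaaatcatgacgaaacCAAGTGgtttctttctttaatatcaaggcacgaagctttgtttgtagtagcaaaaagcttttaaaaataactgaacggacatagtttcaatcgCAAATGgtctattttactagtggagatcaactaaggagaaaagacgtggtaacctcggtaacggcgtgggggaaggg
Tsc2 (chr17:24632628-24632877, minus strand): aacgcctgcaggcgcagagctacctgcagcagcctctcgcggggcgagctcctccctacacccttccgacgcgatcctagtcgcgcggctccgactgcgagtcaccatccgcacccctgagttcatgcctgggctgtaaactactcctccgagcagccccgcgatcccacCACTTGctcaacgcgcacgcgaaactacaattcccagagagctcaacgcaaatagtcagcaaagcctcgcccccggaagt
Kit (chr5:75574737-75574986, plus strand): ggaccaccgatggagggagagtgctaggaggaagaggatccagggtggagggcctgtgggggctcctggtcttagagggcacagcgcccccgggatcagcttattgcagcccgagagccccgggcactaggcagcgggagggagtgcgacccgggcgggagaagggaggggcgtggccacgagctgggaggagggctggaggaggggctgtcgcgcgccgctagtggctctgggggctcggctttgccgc

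Pik3r1 and Pik3ca encode the regulatory and the alpha catalytic subunit of PI3K, the enzyme at the head of the chain. All levels below are log2 signals after background correction and quantile normalization. Probe ILMN_3114641 of Pik3r1 gave 11.91 and 12.07 on wildtype arrays 2 and 3, and 12.22, 12.08, 11.59 and 11.71 on double-knockout arrays 1, 2, 3 and 5. Probe ILMN_2473531 gave 11.47 and 11.69 in wildtype and 11.67, 11.80, 11.08 and 11.26 in double knockout. On both probes double-knockout arrays 1 and 2 lay among or above the wildtype values and arrays 3 and 5 below them, so the genotypes overlapped. The changes were -0.09 ± 0.20 (SE, adjusted p = 0.827) and -0.13 ± 0.22 (SE, adjusted p = 0.758), with n = 2 wildtype and 4 double-knockout arrays here and for every change below. The levels of both probes followed each other over the 6 arrays at r = 0.942, a description of 2 probes read on the same arrays. The spread within the double knockout (SD 0.30 and 0.34, n = 4) was thus larger than the difference between genotypes.

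The single Pik3ca probe was dim, at 5.54 and 5.0 in wildtype and 5.08, 5.27, 5.11 and 5.21 in double knockout, where the lowest detected signal of an array was 4.72 to 4.76. All 4 double-knockout values lay between the wildtype values. The change was -0.10 ± 0.17 (SE, adjusted p = 0.761), and its 95% interval ran from -0.50 to 0.29. Without wildtype array 2 the sign turned, to 0.16 (adjusted p = 0.739).

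Tsc1 and Tsc2 encode the 2 proteins that hold mTORC1 in check, and TSC2 is the one AKT phosphorylates. Tsc2 probe ILMN_3135566 gave 11.08 and 11.12 in wildtype and 10.88, 11.03, 10.98 and 11.26 in double knockout. Probe ILMN_1214823 gave 10.79 and 10.80 in wildtype and 10.63, 10.82, 10.56 and 10.93 in double knockout. In each case the wildtype arrays sat together inside the range of the double-knockout arrays. The changes were -0.06 ± 0.15 for each (SE, adjusted p = 0.836 and 0.847), with 95% intervals of -0.40 to 0.28. As ratios these intervals ran from 0.756-fold to 1.21-fold and 1.22-fold, so a larger change of the Tsc2 signal lay outside both. The remaining Tsc2 probe, ILMN_2656924, was detected on 3 arrays and gave 0.00 ± 0.20 (SE). Its group means of 4.72 and 4.73 lay at the lowest detected signal, so this value says little about the transcript.

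Tsc1 had 3 tested probes. The one with the highest signal, ILMN_2465589, gave 7.05 and 6.94 in wildtype and 6.85, 6.93, 7.15 and 7.41 in double knockout, a change of 0.09 ± 0.18 (SE, adjusted p = 0.805). Probe ILMN_1225372 gave 5.41 and 5.34 in wildtype and 5.40, 5.40, 5.28 and 5.91 in double knockout, a change of 0.12 ± 0.19 (SE, adjusted p = 0.742). Double-knockout array 5 was the highest of the 6 on both, and the other double-knockout arrays overlapped the wildtype. It was also the highest on the dimmest probe, ILMN_2584614, which was detected on 4 arrays and changed by 0.13 ± 0.22 (SE, adjusted p = 0.767). Without that array the 3 changes became -0.02, -0.02 and -0.01. The array stood apart over the whole table as well: on the second principal component, with 19.3% of the variance, it lay at 32.0, double-knockout array 3 at -34.5 and the other arrays between -2.76 and 4.87. The part of this in the Tsc1 values was not tested.

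**Figure D2:**
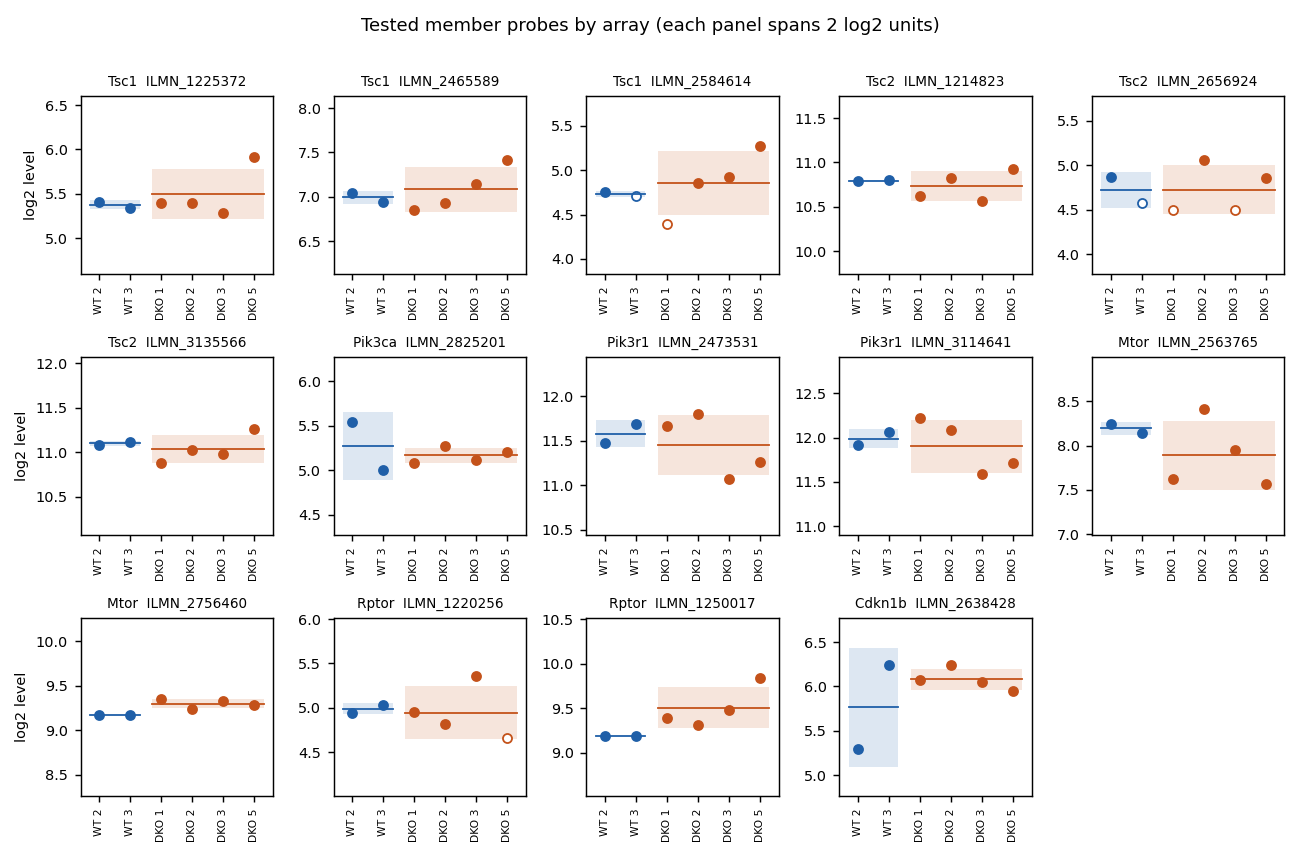
Log2 level of each of the 14 tested member probes on the 6 arrays (WT, wildtype, blue; DKO, double knockout, orange; filled, detected; open, not detected), with the group mean as a line and its SD as a band (n = 2 and 4). Every panel spans the same range of log2 units; the groups overlap on 12 probes, and on Mtor probe ILMN_2756460 and Rptor probe ILMN_1250017 all double-knockout arrays lie above both wildtype arrays.

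Mtor encodes the kinase of mTORC1, and Rptor encodes RAPTOR, the scaffold that brings substrates to it. Mtor probe ILMN_2756460 gave 9.17 on each wildtype array and 9.35, 9.24, 9.32 and 9.28 in double knockout. Its groups did not overlap, but the gap was small: the change was 0.13 ± 0.13 (SE, adjusted p = 0.584), with a 95% interval of -0.16 to 0.42. The other tested Mtor probe, ILMN_2563765, annotated to a cDNA clone, gave 8.24 and 8.14 in wildtype and 7.63, 8.42, 7.95 and 7.57 in double knockout. Here double-knockout array 2 lay above both wildtype arrays and the others below, with a change of -0.30 ± 0.23 (SE, adjusted p = 0.467), the lowest value among the members. It moved to -0.48 without double-knockout array 2, to -0.20 without array 5 and to -0.0086 with the replicate block by title numbers, and did not pass in any of these. Where in the transcript each probe lies is not known here.

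Rptor probe ILMN_1250017 gave 9.19 on each wildtype array and 9.38, 9.31, 9.48 and 9.84 in double knockout. All 4 double-knockout arrays were above the wildtype, with array 5 highest. The change of 0.32 ± 0.17 (SE) had the smallest p of any member (unadjusted 0.0969, adjusted 0.296), and its 95% interval ran from a 0.952-fold to a 1.63-fold level. Leaving out 1 array at a time moved it between 0.21 and 0.38, with adjusted p from 0.230 to 0.602. The dim probe ILMN_1220256, annotated to a cDNA clone and detected on 5 arrays, changed by -0.04 ± 0.20 (SE, adjusted p = 0.92). Of the members 2 of 14 probes had all double-knockout arrays above the wildtype arrays and 0 had all below, where 17.8% and 17.0% of all tested probes did, so groups that did not overlap were not a feature of the members.

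Cdkn1b was read by 1 tested probe of 3, and it was dim. It gave 5.29 and 6.24 on wildtype arrays 2 and 3, and 6.07, 6.24, 6.05 and 5.95 in double knockout. The double-knockout arrays agreed closely (6.08 ± 0.12, SD, n = 4), while the wildtype arrays lay on either side of most of them (5.76 ± 0.67, SD, n = 2), the widest wildtype spread of any tested member. The change was 0.32 ± 0.24 (SE, adjusted p = 0.458). It rested on which wildtype array was compared: without array 2 it was -0.16 (adjusted p = 0.766), and without array 3 it was 0.78 (adjusted p = 0.0870), the smallest adjusted p of any member in any alternative. The sign for Cdkn1b thus turned with the wildtype array used.

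**Figure D3:**
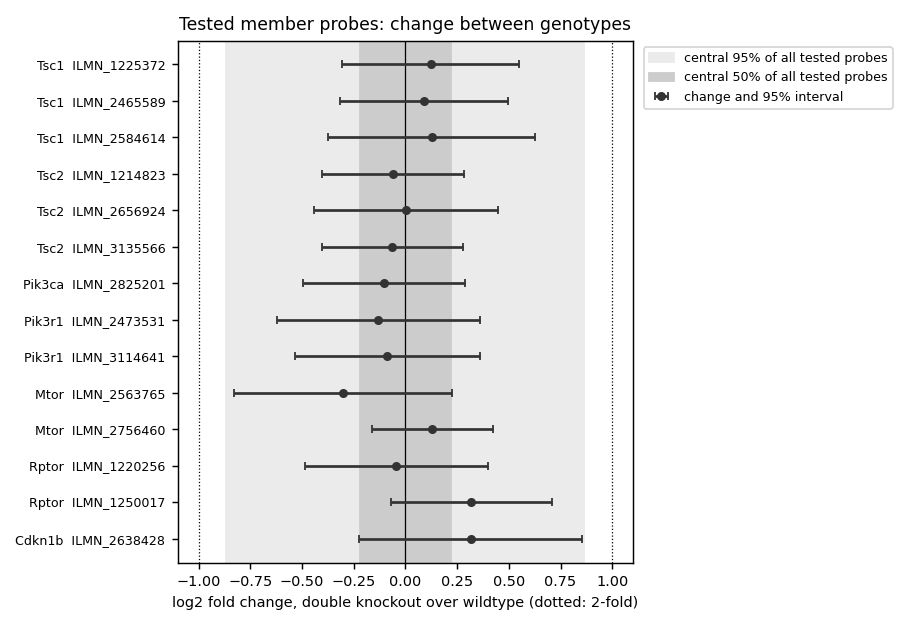
Change between genotypes (log2 fold change, double knockout over wildtype) of the 14 tested member probes with 95% intervals from limma, over grey bands for the central 95% and 50% of all tested probes. Every interval crosses 0 and stays inside the dotted lines at 2-fold; 11 of the 14 changes are smaller than the median size over the array.

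Probes of 1 gene were compared by testing, on each array, the difference between every other tested probe and the brightest one. Of 7 such differences in Mtor, Pik3r1, Rptor, Tsc1 and Tsc2, 0 passed (adjusted p = 0.464 or above) and 0 had an unadjusted p under 0.05. Over the array 0.536% of 6532 differences passed the adjusted threshold and 15.5% had an unadjusted p under 0.05. The largest were in Mtor, whose probes changed by -0.30 and 0.13, a difference of -0.43 (95% interval -1.03 to 0.16), and in Rptor, at -0.36 (-0.97 to 0.25). The Tsc1, Tsc2 and Pik3r1 probes differed by at most 0.07 in size, with intervals inside -0.37 to 0.50. Over the 6 arrays the levels of the Mtor probes ran against each other (r = -0.704), as did those of the Rptor probes (r = -0.345). Those of the 3 Tsc1 probes ran together (r = 0.695 to 0.917), as did those of Tsc2 (r = 0.458 to 0.842) and Pik3r1 (r = 0.942).

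Some transcripts ran close to those of the members with the smallest p, over 6 arrays and 12162 other genes. Rptor was most like Rabggta (r = 0.996), Znhit3 (0.994) and Cdc37l1 (0.988). Cdkn1b was most like Stk19, Gss and Pebp1 (0.986, 0.986 and 0.983), and the Mtor probe ILMN_2563765 most like Arvcf, Prmt1 and Dmpk (0.991, 0.989 and 0.989). With so few arrays 20 or more genes exceeded r = 0.95 for each, so these are descriptions of the same arrays, and 0 of the 9 genes passed the test between genotypes.

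The wider pathway was followed in 8 lists of other genes, each gene read by its brightest tested probe. Of 117 tested genes, 5 fell, 2 rose and 110 did not pass, so 5.98% were called, against 8.39% of all 12163 tested genes (3.59% lower and 4.79% higher). The median change was 0.04, against 0.03 over all genes. An unadjusted p under 0.05 was reached by 29 of the 117, where 24.5% of all tested probes had one. The genes that fell were Kit, Tcl1, Foxo3, Rhebl1 and Strada, and those that rose were Ddit4 and Castor1.

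**Figure D4:**
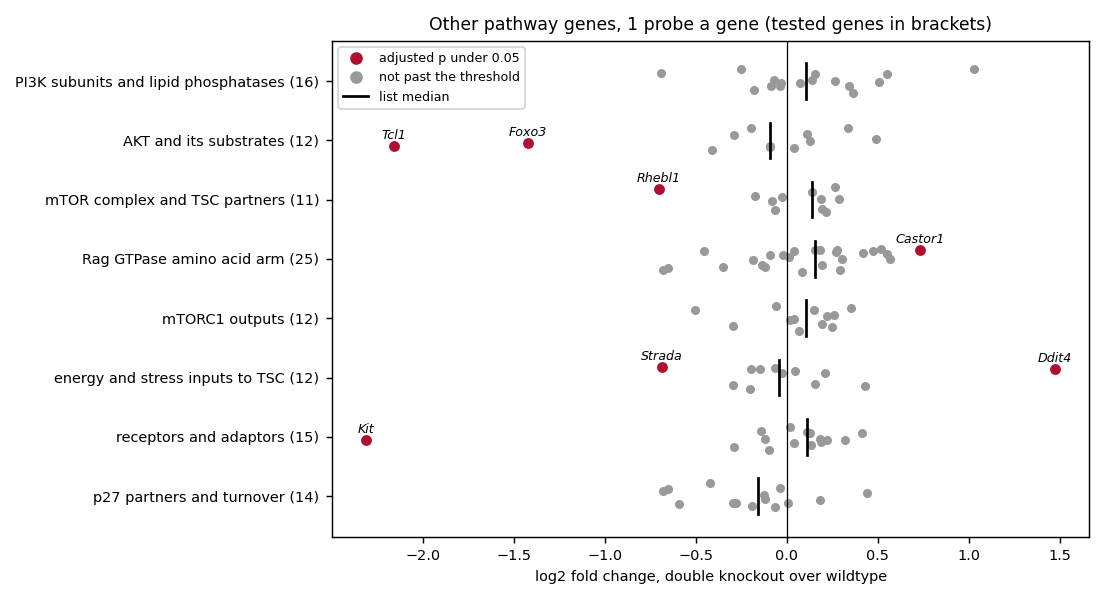
Log2 fold change (double knockout over wildtype) of the 117 tested pathway genes by list, with list medians as bars and the 7 genes past an adjusted p of 0.05 in red and named. Kit, Tcl1 and Foxo3 lie farthest to the left and Ddit4 farthest to the right, while every list median is near 0. Points are spread vertically for legibility only.

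Among 15 receptors and adaptors 14 did not pass (list median 0.11, 2 of the 15 with an unadjusted p under 0.05). Kit, the receptor at the head of the chain, was the 1 gene called. It fell from 12.48 and 12.40 in wildtype to 10.28, 9.78, 9.91 and 10.54 in double knockout, with all arrays apart. The change was -2.31 ± 0.22 (SE, adjusted p = 6.94e-04), 4.96-fold lower, where none of the 14 member probes moved by as much as 1.25-fold. A dimmer Kit probe, detected on both wildtype arrays and 1 double-knockout array, gave -1.95, so its change is in part against background. The remaining Kit probe was not detected on any array and was not tested. The gene of KIT ligand, Kitl, had a best probe detected on 0 wildtype and 2 double-knockout arrays, with a change of 0.19 (adjusted p = 0.615).

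Among 12 tested AKT partners and substrates 2 fell, 0 rose and 10 did not pass (median -0.09, 5 of the 12 with an unadjusted p under 0.05). Foxo3, the factor that restrains growth of resting oocytes, gave 8.81 and 8.60 in wildtype and 7.17, 7.24, 7.48 and 7.24 in double knockout. That is a change of -1.42 ± 0.15 (SE, adjusted p = 0.00114), 2.68-fold lower, with all double-knockout arrays below the wildtype. Its other probes, 2 in number, were not detected on any array. Tcl1, which oocytes also express, encodes a coactivator that binds AKT. It gave 10.08 and 9.78 in wildtype and 7.95, 7.37, 7.80 and 7.98 in double knockout, and fell by 2.16 on the log2 scale (± 0.20 SE, adjusted p = 6.53e-04); its other probe fell too, by 2.70. The changes of both Tcl1 probes differed by -0.54 (95% interval -0.87 to -0.21, adjusted p = 0.143).

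Of 12 energy and stress inputs to TSC, 1 rose, 1 fell and 10 did not pass (median -0.05, 3 of the 12 with an unadjusted p under 0.05). Ddit4, also called REDD1, acts through the TSC complex to lower mTORC1 activity under stress. It rose from 9.38 and 9.58 in wildtype to 11.25, 10.66, 10.98 and 10.93 in double knockout, with no overlap. The change was 1.47 ± 0.18 (SE, adjusted p = 0.00236), 2.77-fold higher. Its relative Ddit4l, picked out once its value was known, gave 0.43 (adjusted p = 0.136). Strada, a pseudokinase that activates the kinase LKB1, gave 5.80 and 5.99 in wildtype and 5.20, 5.15, 5.12 and 5.35 in double knockout, a change of -0.69 ± 0.14 (SE, adjusted p = 0.0234). The size of this dim probe's change depended on the background setting, at -0.38 without correction, -0.40 with an offset of 50 and -0.40 with the authors' values, where it still passed.

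In the list of mTOR complex and TSC partners 1 of 11 fell and 10 did not pass (median 0.14). No other gene of that list had an unadjusted p under 0.05. Rhebl1 gave 8.14 and 7.86 in wildtype and 7.11, 7.25, 7.32 and 7.49 in double knockout, a change of -0.70 ± 0.16 (SE, adjusted p = 0.0331). The Rag GTPase arm reports amino acids to mTORC1. Of its 25 tested genes 24 did not pass (median 0.15, 9 of the 25 with an unadjusted p under 0.05) and 1 rose. That was Castor1, an arginine sensor, at 7.19 and 7.45 in wildtype and 8.20, 8.04, 7.96 and 8.0 in double knockout (change 0.73 ± 0.15 SE, adjusted p = 0.0210). The calls of Rhebl1, Strada and Castor1 were less firm than the others. Each ended without wildtype array 2 (adjusted p = 0.269, 0.117 and 0.201), without wildtype array 3 (0.0858, 0.152 and 0.0655) and without double-knockout array 1 (0.0811, 0.0612 and 0.0584). That of Rhebl1 also ended without double-knockout array 2 (0.0614) or 3 (0.0553). Kit, Foxo3, Tcl1 and Ddit4 passed with any 1 array left out.

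**Figure D5:**
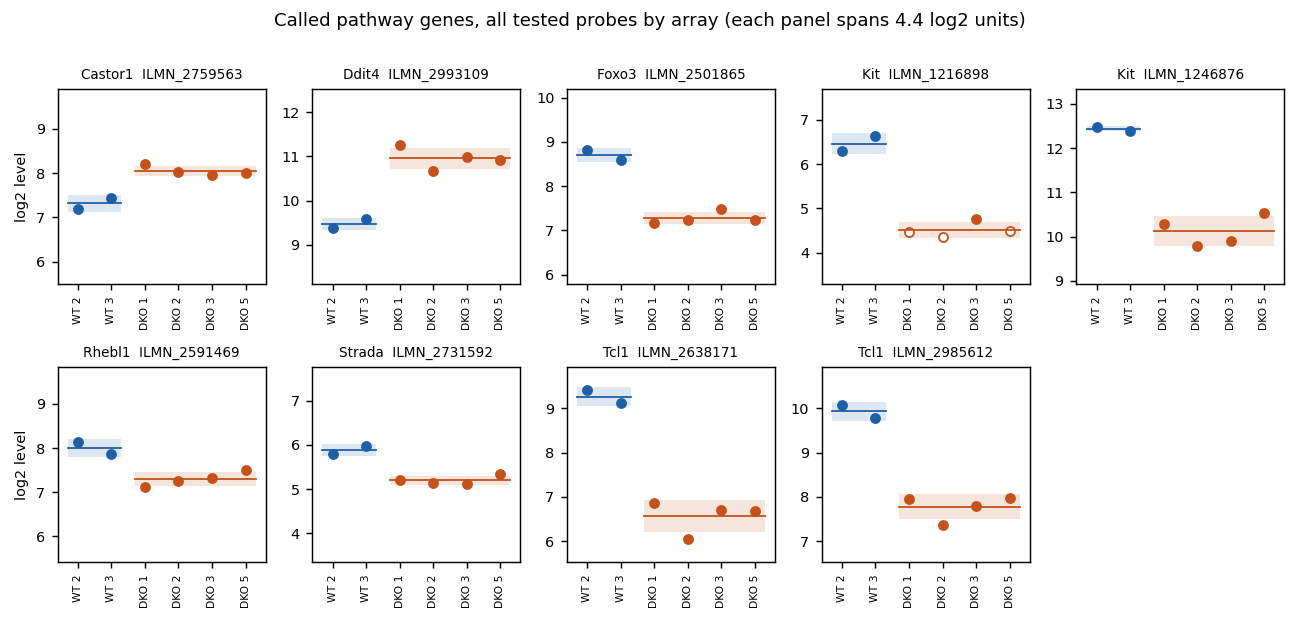
Log2 level on each array of every tested probe of the 7 called pathway genes, with colours, fills, lines and bands as in the plot of member probes and panels that span an equal range. Wildtype and double-knockout arrays do not overlap on any of these 9 probes.

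The remaining lists held no called gene. The list of PI3K subunits and lipid phosphatases also holds Pdpk1, Pik3ap1 and Pik3ip1, genes of neither kind. All 16 tested genes of this list missed the threshold (median 0.11, 5 with an unadjusted p under 0.05). Its brightest, Inppl1 (0.14, adjusted p = 0.629) and Inpp5k (-0.09, adjusted p = 0.751), encode enzymes that remove phosphates from the lipid that PI3K makes. Pik3cd, the delta catalytic subunit known from leukocytes and picked out once its value was known, came nearest. It gave 6.77 and 6.59 in wildtype and 7.39, 7.35, 7.75 and 8.34 in double knockout, a change of 1.03 ± 0.26 (SE, adjusted p = 0.0502), and it passed in 8 of 17 alternatives. Of 6 tested macrophage and leukocyte markers 0 passed and 0 had an unadjusted p under 0.05 (median -0.03), and Ptprc had no tested probe. Of 6 tested endothelial markers 0 passed and 4 had an unadjusted p under 0.05 (median 0.37). Which cells the Pik3cd signal came from was not tested. All 12 mTORC1 outputs missed the threshold too (median 0.11, 1 with an unadjusted p under 0.05). Among them were Rps6, a ribosomal protein phosphorylated by S6 kinase (0.19, adjusted p = 0.456), and Maf1, a repressor of RNA polymerase III (0.22, adjusted p = 0.356). The list of p27 partners and turnover genes also holds Cdkn1c, a relative of Cdkn1b. Of its 14 tested genes 0 passed (median -0.16, 3 with an unadjusted p under 0.05). Its brightest were Cdkn1c (-0.04, adjusted p = 0.922) and the cyclin gene Ccnd3 (-0.07, adjusted p = 0.853).

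Marker genes of ovarian cell types also differed between the genotypes, and in bulk RNA fewer cells of a type and less RNA per cell cannot be told apart. Of 11 tested oocyte markers 7 fell, 0 rose and 4 did not pass, where 3.59% of all tested genes fell and 4.79% rose. Their summed signal was 15788 to 16978 units in wildtype and 3430 to 5330 in double knockout. Uchl1 fell by 2.71 and Figla by 1.09 on the log2 scale, while the germ cell gene Dazl gave -0.27 (adjusted p = 0.491). Of the other listed markers Zp2, Oosp1 and Sycp3 had no tested probe. Of 11 pregranulosa markers 0 fell, 3 rose and 8 did not pass (median change 0.43). Their summed signals were 5395 to 7452 in wildtype and 8832 to 10254 in double knockout. The brightest genes, Amhr2 and Irx3, made up most of these sums. Of its 4 brightest, Amhr2, the receptor of anti-Müllerian hormone, rose by 0.63 (adjusted p = 0.0486). The transcription factor gene Irx3 gave 0.65 (adjusted p = 0.0691), and the signal genes Wnt4 and Fst gave 0.36 and 0.43 (adjusted p = 0.332 and 0.180). The defining marker Foxl2 was near background, detected on 1 wildtype and 2 double-knockout arrays. Of 8 tested mesonephric and surface epithelium markers 2 fell and 0 rose, and of 4 erythroid markers 0 fell and 1 rose. Of the stromal, endothelial and leukocyte markers 0 passed. Kit, Tcl1 and Foxo3 fell alongside the oocyte markers, whose median change was -2.29. Kit is also on that list, so its own fall is part of that median and of the summed signal. How much of each value came from oocytes was not tested.

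As a check of the labels, the Sohlh1 probes changed by -3.30 and -3.33 on the log2 scale in double knockout, though still detected on all arrays. The Sohlh2 probe was detected on 1 wildtype array alone and was not tested. Its raw signal was 60.2 on wildtype array 3 and 62.6 on double-knockout array 2, so the groups overlapped. It cannot show whether Sohlh2 RNA was lost. Whether these probes lie in the deleted parts is not known here. Each array detected 20124 to 20594 probes. An exact permutation of 2 arrays against 4 has 15 arrangements and cannot give a p under 0.0667, so every p above rests on the spread that limma pools over probes.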

How the data were processed

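Members and gene lists were chosen with earlier results of these data known. For every probe on every array the deposited raw table has an intensity, not normalized and not background-subtracted as the values show. The detection column deposited beside it is a score, 1 minus the detection p as its values show. A second deposited table, of linear intensity values that rank like the raw signals, is quantile normalized, neither background-subtracted nor centred (column medians 59.5 to 59.6). GenomeStudio is named in the submitters' processing notes, with no version. RNA was amplified and biotin-labelled with the TotalPrep kit, per the labels.

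In limma 3.58.1 under R 4.3.3, normexp background correction used detection p (function nec) with an offset of 16, and arrays were quantile normalized and taken to log2. Probes detected on at least 2 of 6 arrays (21981) were fitted together with lmFit and eBayes on genotype, with no covariate and Benjamini-Hochberg adjustment over all of them at 0.05. Platform annotation gave 34885 probes 1 symbol and 18 probes several, and 10378 have no name here. The procedure was tested on simulated data.

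Named genes were all member probes, the called genes of each pathway list or its 2 brightest where none was called, the 4 brightest oocyte and pregranulosa markers, and the 3 genes most alike in level to each of the 3 members with the smallest p. Of 144 listed pathway genes 137 had a named probe and 117 were tested; the others are not analysed here. All arrays lay on 1 slide. Replicate numbers shared by the genotypes (2 pairs in the titles, 2 others in the descriptions) do not mark a common origin in the labels. Alternatives covered background, offset, scaling, filters, variance model, array weights, replicate blocks, the authors' values and each array left out.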

Additional observations from a re-analysis of the deposited data

How the results depend on the processing

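None of the 14 member probes passed under any of 17 alternatives (233 refits, smallest adjusted p = 0.0870, largest change 0.78), and 0 of the 7 differences between their probes did. Signs turned in 21 refits of 9 probes, including Cdkn1b, whose change of 0.32 was among the largest. Without background correction, with the authors' values and with array weights Tsc2 ILMN_2656924 gave -0.0060, -0.0046 and -0.028. With 75th percentile scaling Rptor ILMN_1220256 gave 0.081. With the replicate block by title numbers it gave 0.10 and Tsc1 ILMN_1225372 -0.036, and with the block by description numbers Pik3r1 gave 0.15 and 0.17 and Tsc1 ILMN_2465589 and ILMN_2584614 -0.10 and -0.11. With 1 array left out the ranges were -0.16 to 0.78 for Cdkn1b, -0.37 to 0.16 for Pik3ca, -0.20 to 0.018 for Pik3r1 ILMN_3114641, -0.18 to 0.052 for Rptor ILMN_1220256, -0.016 to 0.19, -0.020 to 0.17 and -0.0092 to 0.29 for the Tsc1 probes in the order of their numbers and -0.14 to 0.14 for Tsc2 ILMN_2656924.

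The 1598 called probes became 712 and 1035 under the replicate blocks (title and description numbers) and 224 to 1458 with 1 array left out, where the lowest count came from omitting wildtype array 2, 431 from omitting wildtype array 3 and 860 from omitting double-knockout array 1. Same-numbered arrays deviated together at r = -0.11 to 0.10. With 2 wildtype arrays, the deviations of one from their mean mirror those of the other. These values therefore cannot decide whether the numbers mark a pairing. The blocks rest on the numbers in the titles and descriptions, and they use 4 arrays. Of the pathway genes 3 fell and 1 rose under either block, and 3 to 6 fell and 1 to 4 rose with 1 array left out. Kit, Foxo3, Tcl1 and Ddit4 passed under all 17 alternatives, Strada and Castor1 under 12 and Rhebl1 under 9. With trend and robust eBayes 8 fell and 5 rose. The number that rose was 4 without background correction, with the authors' values, with array weights and with the mean of a gene's probes. Differences between probes called over the array were 35, and 145 without background correction, 159 with an offset of 50, 147 with the authors' values, 282 with no filter, 13 with detection on all arrays, 18 and 0 under the blocks and 0 to 15 with 1 array left out. The median of all probes moved by at most 0.05 on the log2 scale. The causes were not tested. A slide block was not run, as there was 1 slide, and signal over background limits what the dim probes of Pik3ca, Cdkn1b and Strada can show.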
